A study of Mus musculus with 23 samples.

Results

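The 26S proteasome is the protease of the cytosol and nucleus that degrades proteins tagged with ubiquitin. The genes described here were the protein-coding genes of the table whose symbol is Psma, Psmb, Psmc, Psmd, Psme, Psmf or Psmg followed by a number. The pattern matched 49 of 37173 genes. Of these, 47 encode subunits of the proteasome, its activators and inhibitor, or the chaperones that assemble it, and 2 (Psmc3ip and Psme2b) are no subunit by name and are described at the end. All 49 passed the count filter and were tested.

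Messenger RNA was counted in the hippocampi of mice of about 5 months in 23 libraries and 4 genotypes. Wild type (WT) had 6 libraries. The libraries labelled p16KO (n = 6) came from mice homozygous for loss of p16, the cyclin-dependent kinase inhibitor encoded by Cdkn2a. AppNLGF libraries (n = 5) came from mice homozygous for the NLGF knock-in of App, in which the mouse gene itself carries a humanised amyloid-beta sequence with familial Alzheimer mutations and so is driven by its own promoter. AppNLGF_p16KO libraries (n = 6) came from mice homozygous for both. The labels do not give strain or sex, do not describe the deleted part of Cdkn2a, and do not tie each library to 1 mouse, so p-values measure the spread between these libraries.

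The barrel-shaped core of the proteasome is built of 2 outer alpha rings, which gate the entrance, and 2 inner beta rings, which hold the catalytic sites. A cap made of a base with ATPases and a lid binds ubiquitin chains, removes them and unfolds the substrate. Chaperones that are not part of the finished enzyme guide the assembly of core and base, and other activators can open the core without the cap. Cells exposed to interferon replace catalytic beta subunits with induced forms. In neurons the proteasome degrades synaptic and misfolded proteins.

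Library totals ran from 40693561 to 61178839 counts (median 55138908). Cdkn2a itself was near the floor of detection: 0 to 6 reads per library in WT and 0 to 2 with p16KO alone, against 2 to 9 with AppNLGF alone and 0 to 8 with both alleles (AppNLGF_p16KO). The groups overlapped, so these reads do not check the label, and directions below refer to the libraries labelled as lacking p16. Markers of neurons, CA1, CA2 and CA3, and dentate granule cells were above 0 in every library. Library numbers run by genotype, so the order of handling cannot be told apart from genotype. In whole tissue, fewer cells of a type and less RNA per cell cannot be told apart. Levels are counts-per-million (CPM) on scaled library sizes, and differences are log2 fold changes ± SE from edgeR's quasi-likelihood test with Benjamini-Hochberg adjustment over 19423 genes.

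In WT hippocampus, levels were compared per kilobase of the principal transcript. The median of the 45 members expressed outside testis and thymus was 45.8 CPM per kilobase. The highest were Psmc5, a base ATPase (118 ± 6.13, SD, n = 6), the catalytic subunit gene Psmb6 (109 ± 6.38) and Psmb4 (99.9 ± 7.04). These 3 levels are close: Psmb6 and Psmb4 differ by little more than 1 SD. The constitutive beta ring ran from 21.9 CPM per kilobase (Psmb3) to 109, with a median of 72.7. High levels in CPM per kilobase were also those of Psmc3, another base ATPase (95.4), and of the alpha subunit genes Psma7 (94.5) and Psma6 (84.0). In the lid Psmd7 (67.7) and Psmd8 (66.8) led, and Psmd4 and Psmd2 (both 64.1) led the other base subunits. Base ATPases had a median of 65.1, the lid 53.8 and the alpha ring 48.5. Chaperones were lower, with a median of 10.2 for those of the core and 11.2 for those of the base. Psmg2 (16.6) and Psmg1 (10.6) led those of the core, and Psmd5 (16.4) and Psmd10 (11.2) those of the base. Among the activators the nuclear Psme3 was the highest (51.0 ± 2.81) and Psme2 the lowest (7.17 ± 0.894). Over all 23 libraries the coefficient of variation of these 45 genes was 5.32% to 19.2% (median 8.92%), so they varied little.

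The largest set of calls was in the average p16 effect, which sets both groups labelled as lacking p16 against WT and AppNLGF. Here 20 of the 47 proteasome genes rose and 0 fell, by edgeR at an adjusted p under 0.05. DESeq2 called the same 20, Psmc2 and Psmb10 higher, and Psme4 lower. Of all genes tested, edgeR called 13.0% in this contrast, 7.66% higher and 5.32% lower, and DESeq2 called 17.4%. At an unadjusted p under 0.05 stood 31 of the 47, against 31.0% of all genes. The differences were small: those called ran from log2 0.13 to 0.27, which is 9.66% to 20.2% higher. Of the 47, 45 were positive, with a median of log2 0.12, against 50.8% of all genes tested and a median of 0.00. With length and GC trends removed, 43 were positive, with a median of log2 0.10, against a median of 0.03 for all genes. The 20 genes were all 7 constitutive beta subunits, 2 of 7 alpha subunits, 2 of 6 base ATPases, 2 of 3 other base subunits, 2 of 8 lid subunits, 3 of 4 chaperones of the core and 2 of 3 chaperones of the base. None of the 4 activators, the inhibitor, the 2 interferon-induced subunits or the 2 subunits of testis and thymus passed by edgeR with all libraries.

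**Figure D1:**
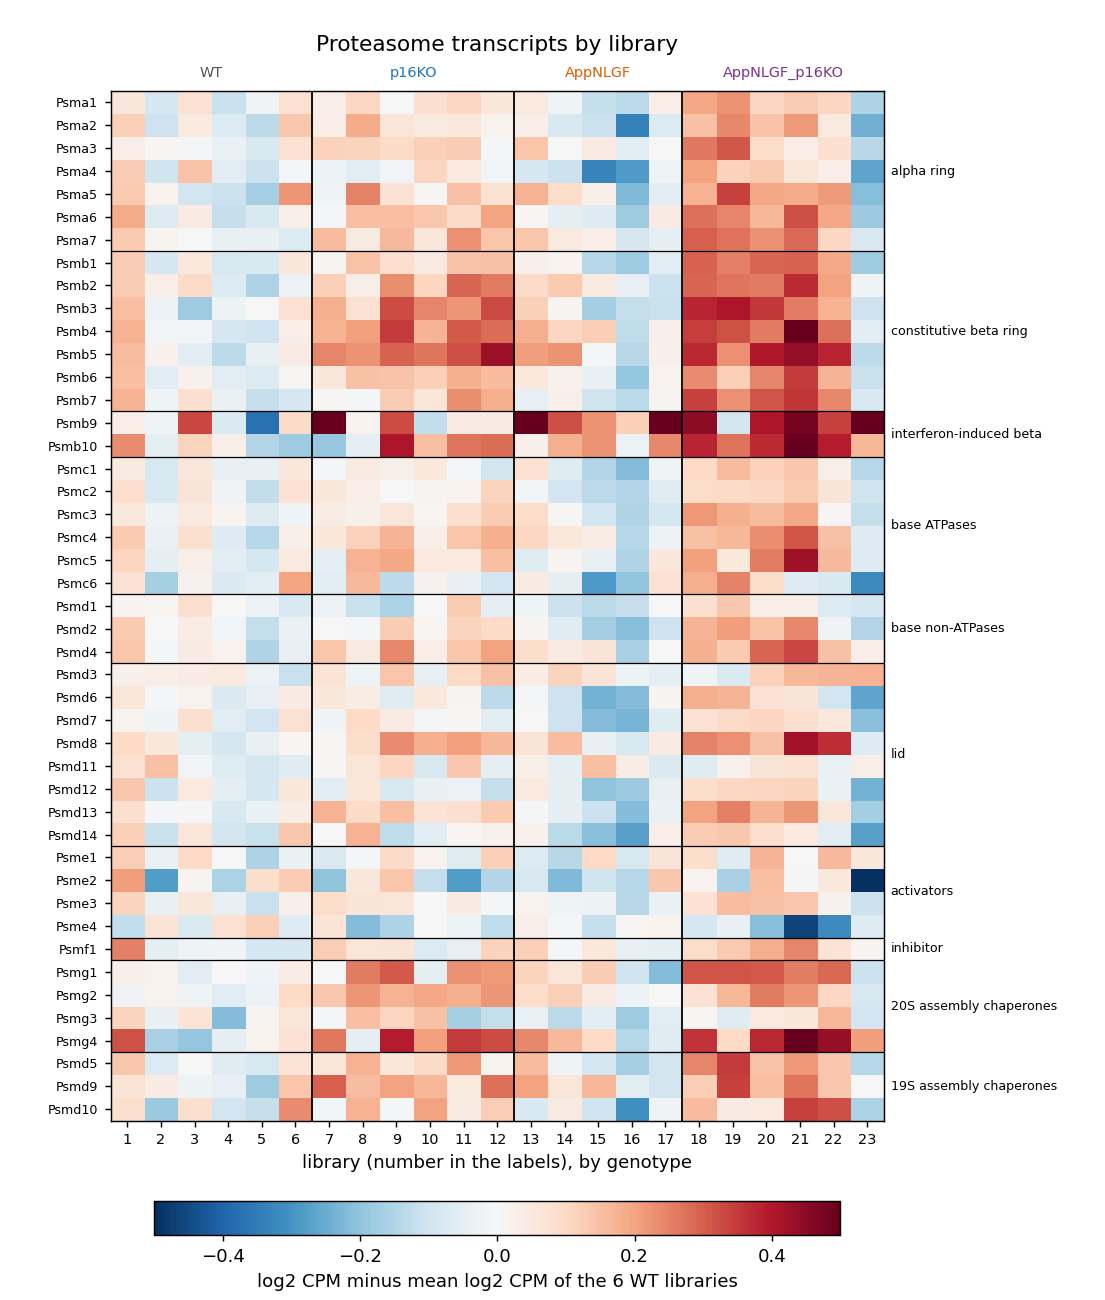
Each row is 1 of the 45 expressed proteasome genes and each column 1 library, ordered by genotype; colour is log2 CPM minus the mean log2 CPM of the 6 WT libraries (scale capped at 0.5 either way). Red prevails in p16KO and AppNLGF_p16KO, most evenly in the constitutive beta ring, while AppNLGF 16 and AppNLGF_p16KO 23 are mostly blue, with 3 and 8 of 45 genes above the WT mean. Single WT libraries ranged from 5 to 43 of 45.

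The constitutive beta ring had the highest median of the parts, log2 0.19, although the chaperone gene Psmg4 (0.26) was above all of its genes but Psmb3. Psmb5 encodes the subunit with the chymotrypsin-like site (ENSMUSG00000022193, GRCm38 chromosome 14, 54614119 to 54618022, minus strand). Its level was 20.8 to 25.3 CPM in WT (median 22.7) and 26.6 to 30.8 in p16KO (median 27.7). The 2 groups did not overlap. AppNLGF libraries 13 to 17 held 26.4, 26.6, 22.7, 20.7 and 23.2 CPM, and AppNLGF_p16KO ran from 20.8 to 30.9 (median 29.6). There 5 of the 6 double mutants lay above every AppNLGF library and library 23 lay at 20.8, beside the lowest of them. The average p16 effect was log2 0.26 ± 0.06 (19.8% higher, adjusted p = 0.0111).

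Psmb3, a structural subunit gene (ENSMUSG00000069744, chromosome 11, 97703399 to 97713500, plus strand), had the smallest p of the 47. It held 14.8 to 18.5 CPM in WT (median 16.6) and 17.6 to 21.0 in p16KO (median 19.6), so the 2 groups overlapped at their edges. AppNLGF libraries held 18.1, 16.9, 14.8, 15.4 and 15.5 CPM and AppNLGF_p16KO 15.5 to 22.1 (median 20.7). The average p16 effect was log2 0.27 ± 0.06 (20.2% higher, adjusted p = 0.00958). Psmb4, whose product helps the core close during assembly (ENSMUSG00000005779, chromosome 3, 94884093 to 94886961, minus strand), was at 110.1 to 133 CPM in WT (median 117) and 133 to 150.4 in p16KO (median 139.6). WT library 1 was the highest of its group and alone reached the lowest p16KO library. AppNLGF libraries held 134, 127, 129, 108 and 120.1 CPM and AppNLGF_p16KO 113 to 167 (median 145). Psmb4 rose by log2 0.23 ± 0.05 (17.4%, adjusted p = 0.0111).

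Psmb7, which carries the trypsin-like site, rose by log2 0.19 ± 0.05 (adjusted p = 0.0162), from means of 101 ± 7.81 CPM in WT and 97.5 ± 4.65 in AppNLGF to 108 ± 7.29 in p16KO and 119 ± 12.3 in AppNLGF_p16KO (SD). Psmb6, which carries the caspase-like site, rose by log2 0.17 ± 0.04 (adjusted p = 0.0198). Its ranges were 82.8 to 96.4 CPM in WT and 90.4 to 98.1 in p16KO. The structural subunit genes Psmb2 (log2 0.19 ± 0.05, adjusted p = 0.0160) and Psmb1 (0.18 ± 0.05, adjusted p = 0.0210) rose as well. Psmb2 lies at 126677630 to 126709714 on chromosome 4, which also holds Cdkn2a, so for this gene the loss of p16 and sequence inherited with that locus cannot be told apart. None of the other 6 lies on that chromosome. The 3 catalytic genes and the 4 structural ones thus rose by similar amounts, log2 0.17 to 0.26 and 0.18 to 0.27.

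**Figure D2:**
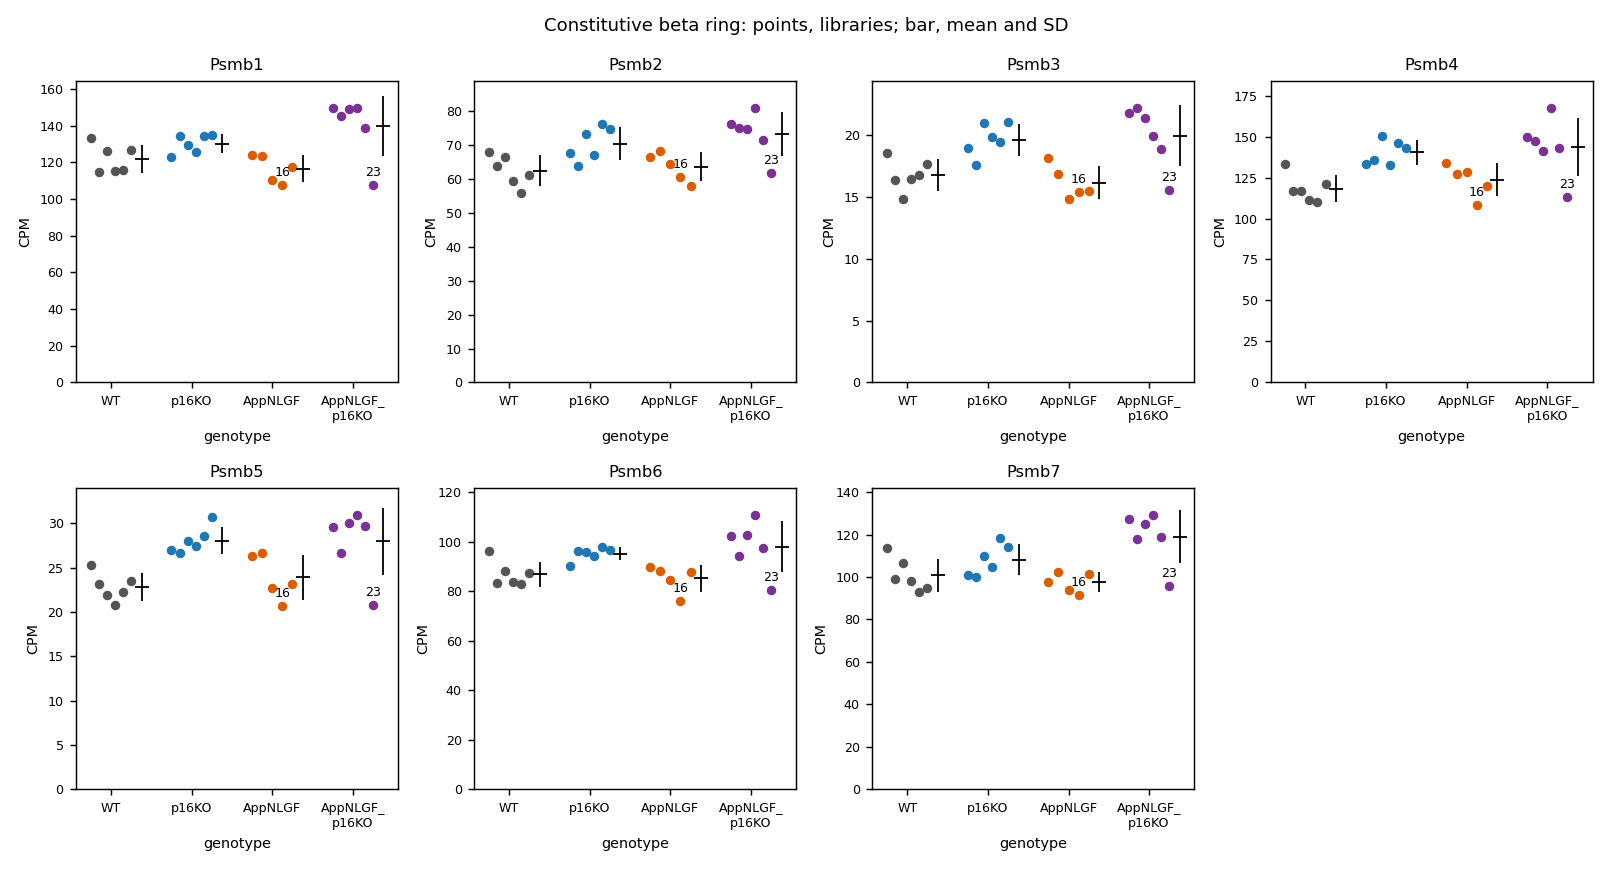
CPM (vertical axis, from 0) of the 7 constitutive beta subunit genes by genotype; points are libraries, bars the mean and SD (n = 6, 6, 5 and 6), and AppNLGF 16 and AppNLGF_p16KO 23 are numbered. Library 23 is the lowest of its group in all 7 panels, and the other 5 double mutants lie above every AppNLGF library. How many of all genes separate in this way was not counted. Without library 23, edgeR called 21.5% of all genes in AppNLGF_p16KO minus AppNLGF, against 0.0309% with it.

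Promoter sequence of beta subunit genes is shown because the whole ring rose together. RefSeq windows (GRCm38.p6, 250 bases before to 50 after the start) matched 39 of the 47 genes, among them 4 of the 7 of the beta ring. Each stretch has 160 bases, 5′ to 3′ on the strand of the gene, and ends before the first base annotated in the count table's gene model or in RefSeq, whichever comes first: chr11:97703239-97703398 (plus strand), chr3:94886962-94887121 (minus), chr14:54618023-54618182 (minus) and chr11:70525197-70525356 (plus). Capitals mark TGACNNNGC or TGAGNNNGC on either strand, core letters of the antioxidant response element, to which the proteasome regulators of the NFE2L family bind.
Psmb3 promoter: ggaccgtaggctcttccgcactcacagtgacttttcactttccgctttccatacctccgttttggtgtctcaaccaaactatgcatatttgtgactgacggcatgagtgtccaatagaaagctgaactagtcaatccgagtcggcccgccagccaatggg
Psmb4 promoter: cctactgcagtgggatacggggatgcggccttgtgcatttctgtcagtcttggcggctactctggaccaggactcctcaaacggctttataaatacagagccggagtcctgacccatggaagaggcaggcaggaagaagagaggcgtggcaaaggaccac
Psmb5 promoter: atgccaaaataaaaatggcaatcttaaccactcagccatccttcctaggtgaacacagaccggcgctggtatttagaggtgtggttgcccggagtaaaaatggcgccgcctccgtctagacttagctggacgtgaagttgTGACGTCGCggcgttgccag
Psmb6 promoter: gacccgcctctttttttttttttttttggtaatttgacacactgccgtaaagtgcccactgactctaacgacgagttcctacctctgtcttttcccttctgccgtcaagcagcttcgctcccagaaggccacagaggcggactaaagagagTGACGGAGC
Psmb5 holds TGACGTCGC from position -47 and Psmb6 TGACGGAGC from position -9, counted from the RefSeq start. In Psmb3 the match TGAGAAAGC at -10 falls outside the printed stretch, and Psmb4 has no match in its window. A gene was counted once where any of its windows held a match. Of the 39 genes, 6 had TGACNNNGC (15.4%, against 15.85% of 14666 protein-coding genes) and 12 had TGAGNNNGC (30.8%, against 22.15%). The ETS-type motif CCGGAAG, searched on both strands, occurred in 14 of the 39 genes (35.9%, against 14.93%) and in none of those 4 of the beta ring. Each motif was counted on its own, also where matches of different motifs overlap. A match is a description of the letters and not a measured binding site.

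The alpha ring showed the same direction with smaller values: all 7 were positive, with a median of log2 0.12. Psma6 rose by log2 0.17 ± 0.05 (adjusted p = 0.0260) and Psma7 by 0.15 ± 0.04 (adjusted p = 0.0244). Psma7 held 82.2 to 94.6 CPM in WT (median 85.2) and 89.1 to 101 in p16KO (median 95.7), 95.0, 89.2, 88.3, 81.3 and 83.7 in AppNLGF, and 81.8 to 106 in AppNLGF_p16KO (median 103). The ranges overlapped in both pairs. The other 5 alpha subunit genes ran from log2 0.09 (Psma3) to 0.13 (Psma2), with adjusted p of 0.0775 to 0.202.

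In the base, the ATPase genes Psmc5 (log2 0.16 ± 0.05, adjusted p = 0.0324) and Psmc4 (0.13 ± 0.04, adjusted p = 0.0381) rose. Psmc2 lay just outside the threshold at log2 0.10 (adjusted p = 0.0541), and Psmc6 was at 0.04 (adjusted p = 0.707). Psmd4, a receptor for ubiquitin chains, rose by log2 0.16 ± 0.04 (adjusted p = 0.0211), from 85.4 ± 5.61 CPM in WT and 85.8 ± 5.69 in AppNLGF to 93.6 ± 5.30 in p16KO and 97.2 ± 7.44 in AppNLGF_p16KO. Psmd2, on which shuttle proteins dock, rose by log2 0.13 ± 0.04 (adjusted p = 0.0429). Psmd1, the other scaffold of the base, was at log2 0.03 ± 0.04 (adjusted p = 0.598).

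The lid had the lowest median of the parts of core and cap, log2 0.07, with all 8 positive. Psmd13 (log2 0.16 ± 0.04, adjusted p = 0.0178) and Psmd8 (0.18 ± 0.05, adjusted p = 0.0208), both structural, rose. Psmd13 held 69.4 to 77.4 CPM in WT (median 72.7), 76.6 to 82.3 in p16KO (median 79.0), 72.8, 70.7, 67.8, 62.9 and 71.4 in AppNLGF and 65.0 to 86.9 in AppNLGF_p16KO (median 83.1). All but the lowest double mutant, library 23, lay above every AppNLGF library. Psmd14, the deubiquitinase that cuts chains off the substrate, was at log2 0.06 ± 0.05 (adjusted p = 0.424). Psmd11 was at log2 0.01 ± 0.04 (adjusted p = 0.850).

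Of the chaperones that build the alpha ring, Psmg4 (log2 0.26 ± 0.07, adjusted p = 0.0240), Psmg1 (0.20 ± 0.06, adjusted p = 0.0268) and Psmg2 (0.13 ± 0.04, adjusted p = 0.0275) rose. Psmg3, the partner of Psmg4, was at 0.07 ± 0.06 (adjusted p = 0.438). Psmg2 was at 17.0 to 18.8 CPM in WT (median 17.4) and 19.3 to 20.5 in p16KO (median 20.0), which did not overlap. In AppNLGF it was at 18.7, 19.1, 18.1, 17.2 and 17.6 CPM and in AppNLGF_p16KO at 16.6 to 21.1 (median 19.3), which did. Psmg1 was nearly constant in WT (10.6 to 11.3 CPM) and wider elsewhere: 10.7 to 13.7 with p16KO alone, 9.51 to 12.1 with AppNLGF alone and 10.3 to 13.8 with both (AppNLGF_p16KO). Among the chaperones of the base, Psmd5 (log2 0.15 ± 0.05, adjusted p = 0.0386) and Psmd9 (0.15 ± 0.05, adjusted p = 0.0393) rose, and Psmd10 was at 0.15 ± 0.06 (adjusted p = 0.0923).

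Activators and the inhibitor did not pass by edgeR with all libraries. Psme4, a nuclear activator that can replace the cap, was the one member with a sizeable negative value, log2 -0.13 ± 0.05 (adjusted p = 0.0736). It passed with DESeq2 (adjusted p = 0.0457) and, by edgeR, without WT 1 (0.0459), p16KO 7 (0.0470), AppNLGF_p16KO 19 (0.0479) or AppNLGF_p16KO 23 (0.0318). It held 61.8 to 73.1 CPM in WT, 57.9 to 70.6 in p16KO, 68.9, 67.0, 62.2, 67.8 and 68.1 in AppNLGF and 48.8 to 65.6 in AppNLGF_p16KO. The groups overlapped in both pairs, and library 21 was the lowest. Psme3 was at log2 0.08 ± 0.03 (adjusted p = 0.134) and Psmf1, the inhibitor, at 0.07 ± 0.04 (adjusted p = 0.239).

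**Figure D3:**
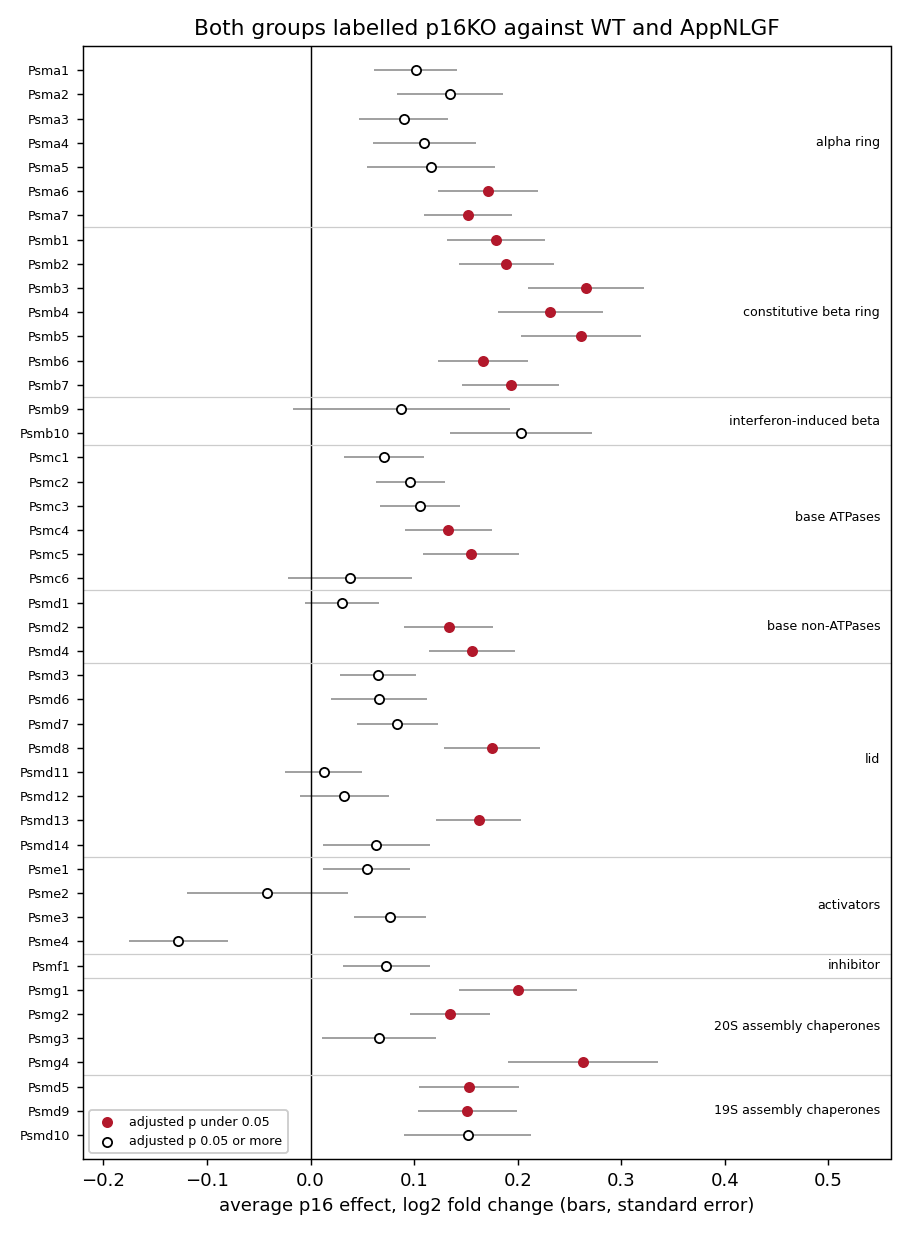
Average p16 effect (log2 fold change, horizontal axis; bars, SE) of the 45 expressed genes, grouped by place in the particle; filled points have an adjusted p under 0.05. All 7 constitutive beta genes are filled, between 0.17 and 0.27, and Psme4 and Psme2 are the 2 points left of 0.

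Taken in each App background alone, the p16 contrasts called none of the 47 by edgeR with all libraries. For p16KO minus WT, 0 were called by edgeR (0.309% of all genes were), and 12 had an unadjusted p under 0.05 (15.8% of all genes did), all 12 higher. DESeq2 called 3 of the 47, where it called 2.41% of all genes. By edgeR the median was log2 0.08 and 41 of 47 were positive. With length and GC trends removed the median was log2 0.06, against 0.02 for all genes. Without that removal the smallest adjusted p were 0.0871 (Psmb5, log2 0.30 ± 0.08) and 0.0974 (Psmg2, log2 0.19 ± 0.05). For AppNLGF_p16KO minus AppNLGF, 0 were called by edgeR (0.0309% of all genes were). By the same test 29 had an unadjusted p under 0.05 (23.5% of all genes did), 28 of them higher. DESeq2 called 8 of the 47, where it called 3.48% of all genes. By edgeR the median was log2 0.16 and 44 of 47 were positive (with length and GC trends removed, log2 0.14 against 0.04 for all genes). Psmb7 (log2 0.29 ± 0.07) and Psmb1 (0.26 ± 0.07) had the smallest p, each with an adjusted p of 0.112. These 2 contrasts share no library.

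The interaction, which asks whether the p16 difference depends on App, called 0 of the 47 and 0% of all genes by edgeR; DESeq2 called none of the 47 either, and 1 member had an unadjusted p under 0.05 (5.26% of all genes did). That member was Psma4, an alpha subunit gene, at log2 0.21 ± 0.10 (adjusted p = 0.897). Psmb7 was next at 0.19 ± 0.09 (adjusted p = 0.897). Psma4 held 52.3 to 62.4 CPM in WT and 54.3 to 60.7 in p16KO, 53.2, 52.4, 44.8, 46.4 and 55.6 in AppNLGF and 47.0 to 64.9 in AppNLGF_p16KO.

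Single libraries weighed on these counts. Relative to the WT mean, 3 of the 45 expressed genes were higher in AppNLGF 16 (median log2 -0.14) and 8 of 45 in AppNLGF_p16KO 23 (median -0.11). The other AppNLGF libraries had 17 to 33 genes above it, the other double mutants 37 to 44, p16KO 29 to 37, and WT 5 to 43. Without AppNLGF 16 the average p16 effect called 5 of the 47 (3.88% of all genes were called), namely Psmb2, Psmb3, Psmb4, Psmb5 and Psmb7. Without WT 5 it called 13 (6.10% of all genes). Without AppNLGF_p16KO 23 it called 32 higher and 1 lower, Psme4 (26.5% of all genes). In AppNLGF_p16KO minus AppNLGF, leaving out library 23 gave 30 higher and 1 lower, where 21.5% of all genes were then called. In p16KO minus WT it gave Psmb4, Psmb5 and Psmg2 (1.02% of all genes). Those 5 beta genes were called in every fit of the average p16 effect that was run, 23 without 1 library each and 6 others. Among the others, the omission of AppNLGF_p16KO 21 repeats 1 of the 23.

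The beta ring stood above the lid in every library labelled as lacking p16 and in every AppNLGF library. Its median deviation from the WT mean minus that of the lid was log2 0.07 to 0.27 in p16KO and 0.08 to 0.26 in AppNLGF_p16KO, library 23 included, against -0.02 to 0.07 in WT and 0.05 to 0.12 in AppNLGF. The ranges touch or overlap, and this difference was not tested. The beta ring and the lid had the highest and lowest median of core and cap in the average p16 effect of these same libraries. A difference between them in the libraries labelled as lacking p16 thus restates that ranking and is no separate evidence. The mitochondrial share of counts is given beside these values: it was 2.79% to 3.54% in p16KO against 3.03% to 3.92% in WT, and 3.30% to 3.76% in AppNLGF_p16KO against 3.74% to 3.99% in AppNLGF. Library 23 had the highest share of the double mutants (3.76%) and AppNLGF 16 was within its group (3.75%). Among 44 markers of cell types tested, 6 were called in this contrast, where 13.0% of all genes were: Slc17a7 of neurons, Aldoc of astrocytes and C1qa and Tmem119 of microglia higher, and Slc1a2 of astrocytes and Flt1 of endothelium lower. The summed neuronal markers were 6115 to 6537 CPM in WT and 6133 to 6569.7 with p16KO alone, against 5789.8 to 6550.2 with AppNLGF alone and 6108 to 6954 with both alleles (AppNLGF_p16KO), with none of the 5 at 0. Their part in the result was not tested.

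The App knock-in changed none of the 47 past the threshold. In AppNLGF minus WT 0 were called by edgeR and by DESeq2 (0.319% of all genes by edgeR), with 3 at an unadjusted p under 0.05 (8.54% of all genes). The smallest p in AppNLGF minus WT were those of Psmb9 (log2 0.36 ± 0.15, adjusted p = 0.527) and Psma4 (-0.16 ± 0.07, adjusted p = 0.538). In AppNLGF_p16KO minus p16KO 0 were called by either tool (0.247% of all genes by edgeR), with 2 at an unadjusted p under 0.05 (7.89%). The smallest p in that contrast were those of Psmb10 (log2 0.23 ± 0.09, adjusted p = 0.547) and Psmb7 (0.14 ± 0.06, adjusted p = 0.613). In the average App effect 0 were called by either tool (0.793% of all genes by edgeR), with 2 at an unadjusted p under 0.05 (10.4%), and the median of the 47 was log2 0.00. Those 2 were the interferon-induced catalytic subunit genes. Psmb9, which takes the place of Psmb6 (ENSMUSG00000096727, chromosome 17, 34181987 to 34187764, minus strand), was scarce. It held 1.29 to 2.10 CPM in WT (median 1.67), 1.53 to 2.42 in p16KO (median 1.72), 2.44, 2.08, 1.95, 1.81 and 2.54 in AppNLGF and 1.56 to 2.78 in AppNLGF_p16KO (median 2.24). The groups overlapped, and the average App effect was log2 0.30 ± 0.10 (adjusted p = 0.245).

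Psmb10, which takes the place of Psmb7 (ENSMUSG00000031897, chromosome 8, 105935735 to 105938444), was the more abundant of the pair. It held 21.8 to 29.0 CPM in WT (median 24.5), 21.7 to 32.7 in p16KO (median 28.5), 25.1, 27.9, 28.8, 24.2 and 29.1 in AppNLGF and 27.7 to 39.6 in AppNLGF_p16KO (median 32.0). The double mutants were the highest group and still overlapped the others. Its average App effect was log2 0.18 ± 0.07 (adjusted p = 0.324) and its average p16 effect 0.20 ± 0.07 (adjusted p = 0.0501), just outside the threshold. The latter passed with DESeq2 (adjusted p = 0.0338), with the stricter count filter (0.0459) and, by edgeR, without WT 1, p16KO 7, p16KO 8, AppNLGF_p16KO 19 or AppNLGF_p16KO 23 (0.0177 to 0.0462). Per kilobase, Psmb10 stood at 20.3% to 22.6% of Psmb7 in WT and 19.0% to 26.3% with p16KO alone, against 22.7% to 27.1% with AppNLGF alone and 22.3% to 27.2% with both alleles (AppNLGF_p16KO). Psmb9 stood at 0.919% to 2.04% of Psmb6 over all libraries, so the constitutive form prevailed in every one. Like Psmb9 and Psmb10, the activator genes induced with them were not called in the App contrasts. Psme1 was at 28.5 ± 1.99 CPM in WT, 28.1 ± 1.99 in AppNLGF, 28.8 ± 1.60 in p16KO and 29.9 ± 1.88 in AppNLGF_p16KO. Psme2 was at 6.89 ± 0.860, 6.50 ± 0.620, 6.46 ± 0.720 and 6.54 ± 1.04 CPM in the same order.

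**Figure D4:**
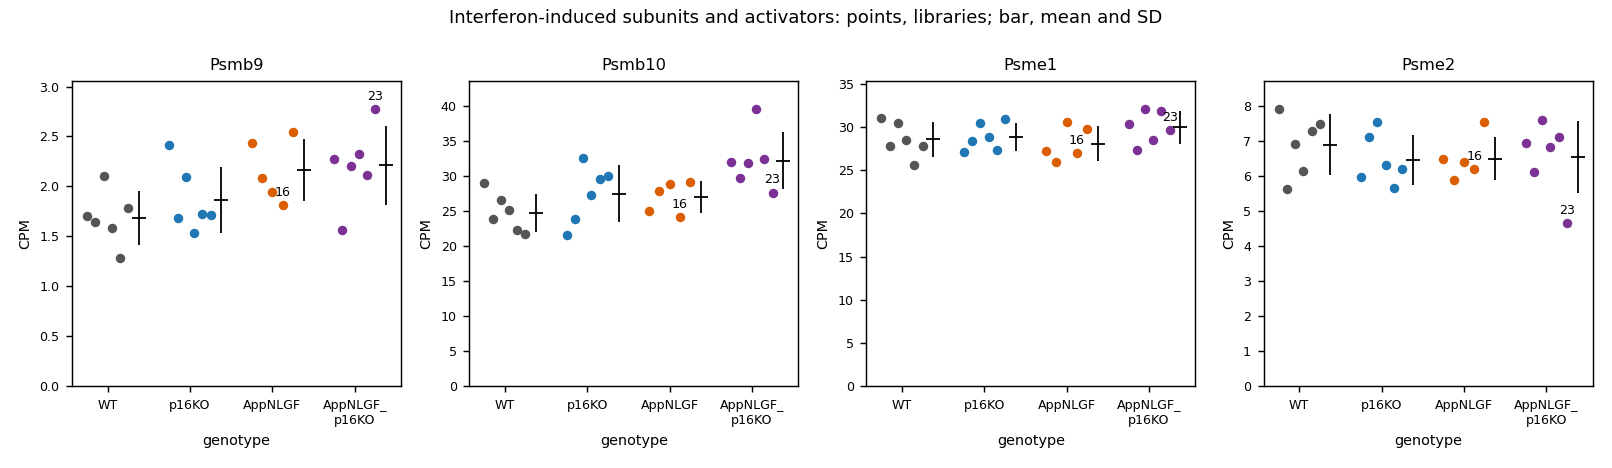
CPM (vertical axis, from 0) of the interferon-induced beta genes Psmb9 and Psmb10 and the activator genes Psme1 and Psme2; points are libraries, bars the mean and SD (n = 6, 6, 5 and 6). All 4 genotypes overlap for Psme1 and Psme2. The highest levels of Psmb9 and Psmb10 are single libraries, AppNLGF_p16KO 23 (2.78 CPM) and AppNLGF_p16KO 21 (39.6 CPM), and the next for Psmb9 is AppNLGF 17 (2.54 CPM).

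Markers of microglia, cells that express interferon-induced subunits, moved with App. The summed level of 5 microglial markers was 261 to 292 CPM in WT and 285 to 313 with p16KO alone, against 313 to 377 with AppNLGF alone and 334 to 395 with both alleles (AppNLGF_p16KO), with no marker at 0. The 4 markers of plaque microglia summed to 10.8 to 14.7 CPM in WT and 12.3 to 17.0 with p16KO alone, against 29.3 to 39.5 with AppNLGF alone and 28.7 to 40.9 with both alleles (AppNLGF_p16KO), and all 4 were called higher in the average App effect. Their part in the Psmb9 and Psmb10 values was not tested. Of 17 genes of antigen processing and the interferon response, all 17 were positive in the average App effect and 2 were called (0.793% of all genes were): Tap1, the peptide transporter (log2 0.32 ± 0.07, adjusted p = 0.0223), and B2m, the light chain of class I molecules (0.35 ± 0.08, adjusted p = 0.0361). In the average p16 effect 5 of those 17 were called, all lower (5.32% of all genes were called lower), among them Ifit1 (log2 -0.92 ± 0.19, adjusted p = 0.00877), Ifit3 (-0.83 ± 0.18, adjusted p = 0.0115) and Irf7 (-0.58 ± 0.16, adjusted p = 0.0260). Psmb9 and Psmb10 were at log2 0.09 and 0.20 in that contrast.

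Genes that work beside the proteasome were called at about the rate of all genes in the average p16 effect (7.66% higher, 5.32% lower). Positive were 10 of 14 partners outside the name pattern, 18 of 23 ubiquitin genes and 7 of 12 genes that control proteasome transcription, against 50.8% of all genes. At an unadjusted p under 0.05 by edgeR stood 6, 9 and 3 of them, against 31.0% of all genes. Of 14 partners outside the name pattern, 1 was called higher and 0 lower: Zfand2a, a stress-induced proteasome adaptor (log2 0.11 ± 0.04, adjusted p = 0.0419). Pomp, the chaperone that starts beta ring assembly, was at 0.13 ± 0.05 (adjusted p = 0.0678). Of 23 genes for ubiquitin supply and shuttling, 2 were called higher and 0 lower, the ubiquitin ligase Stub1 (log2 0.16 ± 0.04, adjusted p = 0.0222) and the adaptor Ubxn1 (0.13 ± 0.04, adjusted p = 0.0452). Of 12 genes that control proteasome transcription, 0 were called in that contrast by edgeR and 3 had an unadjusted p under 0.05. Their main factor Nfe2l1 was at log2 -0.05 ± 0.03 (adjusted p = 0.304), with 310.8 ± 13.4 CPM in WT and 294 ± 5.20 in p16KO. The protease that activates it, Ddi2, fell by 0.13 on the log2 scale in the average App effect (SE 0.03, adjusted p = 0.0443), which takes both p16 backgrounds together. With p16 present it was at 77.9 ± 2.45 CPM in WT and 72.9 ± 4.85 in AppNLGF, and AppNLGF minus WT called 0 of the 12.

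The subunits of other tissues were near the floor. Psma8, the alpha subunit of testis, held 0.187 to 0.629 CPM (10 to 36 reads) and Psmb11, the beta subunit of the thymus, 0.0348 to 0.368 CPM (2 to 22 reads), and neither was called in any contrast (adjusted p of 0.766 or more for Psma8 and 0.866 or more for Psmb11). Psmb11 lies next to Psmb5 on chromosome 14, at 54621433 to 54629556. Reads were kept where they aligned uniquely, so members with near-identical processed pseudogenes may be undercounted, and their levels are uncertain. The 5 named pseudogenes of Psma5, Psmb5, Psmb6 and Psmb7 held at most 16 reads in a library.

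Of the other 2 genes of the pattern, Psme2b, named as a relative of Psme2, held 0.321 to 0.660 CPM (18 to 36 reads). Psmc3ip encodes a recombination factor that binds the ATPase Psmc3 and is no part of the particle (ENSMUSG00000019303, chromosome 11, 101091823 to 101095436, minus strand). Its libraries fell on 2 levels. WT 3 and 4, p16KO 8, AppNLGF 13, 14, 15 and 16 and AppNLGF_p16KO 22 held 9.37 to 11.7 CPM, and the other 15 libraries 2.29 to 3.18. Nothing lay between, both levels occurred in all 4 genotypes, and its average p16 effect of log2 -0.75 ± 0.38 did not pass (adjusted p = 0.179). Without AppNLGF_p16KO 22, the one double mutant at the upper level, it was -1.07 ± 0.34 (adjusted p = 0.0499 by edgeR).

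**Figure D5:**
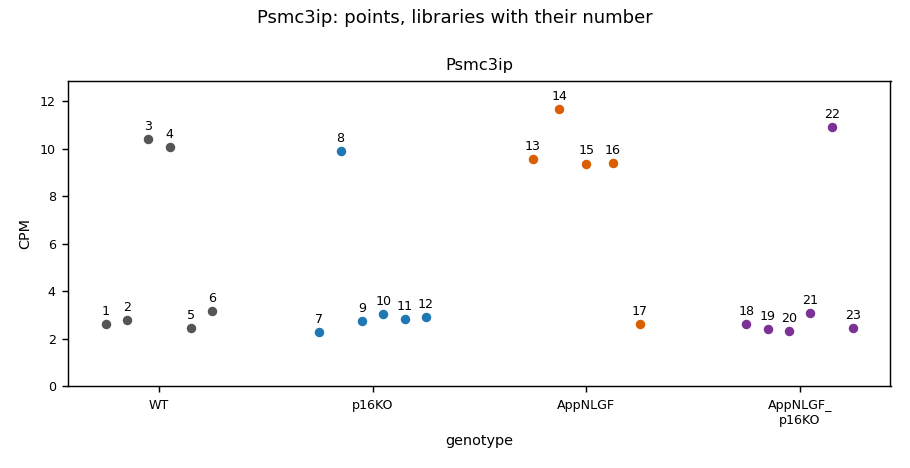
CPM of Psmc3ip (vertical axis, from 0) by genotype, 1 point per library with its number. The 23 points fall between 2.29 and 3.18 or between 9.37 and 11.7, with points of every genotype at both levels.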

How the data were processed

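The series measured poly-A RNA of both hippocampi from mice of 4 genotypes in 23 stranded, single-end libraries of 50-base reads, made from 350 ng of RNA with 12 PCR cycles per the labels' protocols. Per the series' design text and the submitters' processing notes, reads were trimmed with cutadapt 4.2 (Phred 20, 40 bases or more), Bowtie2 2.3.5 served to discard those of ribosomal RNA, and STAR 2.7.10b aligned the rest to GRCm38. The deposited values are raw counts per gene of Ensembl 102, from uniquely aligned reads that the authors assigned to 1 gene.

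Genes with enough counts in the smallest group (filterByExpr, minimum count 10) were kept, which left 19423 of 37173. Library sizes were scaled by TMM, and 1 model of 4 genotypes over all 23 libraries was fitted with edgeR 4.0.16 in R 4.3.3 (robust quasi-likelihood F test, two-sided, Benjamini-Hochberg adjustment, threshold 0.05). The average p16 effect is the mean of the p16 contrasts in the 2 App backgrounds, the average App effect likewise, and the interaction is their difference. CPM used the same scaled sizes, and levels per kilobase used the length of the longest principal transcript of GENCODE M21. The common biological coefficient of variation was 15.8%. Totals of 40693561 to 61178839 counts per library limit precision most for the scarce Psmb9, Psma8, Psmb11 and Psme2b. The code was tested on simulated data.

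Alternatives were DESeq2 1.42.0, RLE size factors, a stricter filter (15 reads in 90% of libraries) and none, removal of length and GC trends, fits on the 2 groups compared, omission of the library past a recomputed distance limit (AppNLGF_p16KO 21), and omission of each library in turn. Named with values were all genes past the threshold, the 2 with the smallest p in each contrast, the 2 most abundant per length in each part, Psmb9, Psmb10, Psme1, Psme2, Psma8 and Psmb11, and from each pathway list up to 3 called genes. Further genes named in the text were chosen after their values were seen. The members, the lists and the tests were chosen with earlier results of these data known. A gene of the name pattern is not reported here.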

Additional observations from a re-analysis of the deposited data

Results flagged for a closer look

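Within a genotype, the highest or lowest library of a gene was called far from the rest where its gap to the nearest other exceeded Dixon's critical value. This held for 16 of 196 groups of libraries, in 14 genes, and chance gives about 1 in 20. AppNLGF_p16KO 23 was the low library in 8 of the 16 cases. There Psma1 was at 67.2 CPM, Psma5 at 11.6 and Psma6 at 77.04 in the alpha ring, Psmb1 at 108 and Psmb7 at 95.5 in the beta ring, Psmc2 at 93.7 in the base, Psmd7 at 92.6 in the lid, and the chaperone gene Psmg1 at 10.3. The other 5 double mutants held, for example, 139 to 149 CPM of Psmb1 and 13.2 to 13.8 of Psmg1.

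Of the others, the activator gene Psme4 was low in AppNLGF 15 (62.2 CPM). Among alpha subunits, Psma2 was high in p16KO 8 (89.5 CPM, others 79.8 to 82.1) and Psma3 low in p16KO 12 (29.9 CPM). Psmf1, the inhibitor, was high in WT 1 (43.0 CPM, others 34.1 to 35.7). Psma8 was highest in WT 4 at 0.559 CPM, which is few reads. Psmc3ip stood apart in p16KO 8 (9.89 CPM), AppNLGF 17 (2.61) and AppNLGF_p16KO 22 (10.9), where a single library of the genotype lay on the level opposite to the others.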

How the results depend on the processing

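Of the 49 genes, the average p16 effect called 20 (13.0% of all genes). With 1 library left out it called between 5 (without AppNLGF 16, 3.88% of all genes) and 33 (without AppNLGF_p16KO 23, 26.5%). DESeq2 called 23, including all 20, where 17.4% of all genes were called. No count filter left 14 (3.67% of all genes). Removal of length and GC trends gave 17 (16.5%), of which 13 were shared and Psmb6 was not (adjusted p = 0.166). In p16KO minus WT, 0 became 3 with DESeq2 (2.41% of all genes) and 3 in a fit of both groups alone (1.95%). It became 0 to 3 when a library was left out (3 without AppNLGF_p16KO 23, 1.02%). In AppNLGF_p16KO minus AppNLGF, 0 became 8 with DESeq2 (3.48% of all genes) and 0 to 31 when a library was left out (31 without AppNLGF_p16KO 23, 21.5%). The cause was not tested. The other 4 contrasts gave 0 in every alternative run. Over the 32 results for single genes that are called or have the smallest p of a contrast, there were 848 alternatives. Of these, 741 kept direction and side of the threshold, 97 lost the threshold, 10 gained it and 0 reversed. Only called genes can lose it, and all of those were in the average p16 effect, where 483 of 580 alternatives stayed called. The omission of AppNLGF_p16KO 21 is counted both for the distance limit and as a library left out in turn. Of the 29 genes that the average p16 effect did not call, 15 were called in at least 1 alternative, Psmb10 in 7 and Psme4 in 5. No paired analysis was possible because libraries are numbered 1 to 23 and no number is shared between genotypes. Depth limits Psmb9, Psma8, Psmb11 and Psme2b most, with at most 162, 36, 22 and 36 reads in a library.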

Other observations

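The libraries at the high level of Psmc3ip also stood apart in other genes. Gm4875, a processed pseudogene on chromosome 6 (GRCm38, 117997207 to 117997992), was at 0.767 to 1.41 CPM in WT 3 and 4, p16KO 8, AppNLGF 13 to 16 and AppNLGF_p16KO 22, and at 0.147 to 0.521 in the other libraries. B230217C12Rik, on the same chromosome as Psmc3ip (97840780 to 97844099), was at 35.4 to 46.0 CPM in those libraries and 49.4 to 58.3 in the others. Both genes were chosen after their values were seen. Mlx, which overlaps Psmc3ip on the map (101087277 to 101092207), held 29.9 to 37.2 CPM over all 23 libraries, and Retreg3 held 78.5 to 107.5. No test was made, since these libraries were told apart by the measured level itself.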
